A study of Solanum lycopersicum with 6 samples.

Results

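The light-harvesting complex and Rubisco genes of tomato (Solanum lycopersicum) were followed as 36 genes, given by a list of identifiers, and read through the 50 probes that carry those identifiers on a custom array of 43803 probes (34527 tomato gene identifiers). They comprise 29 genes for chlorophyll a/b-binding proteins (43 probes), 3 for the Rubisco small subunit, 2 for Rubisco activase, and 1 each for PSBO and PSBS. Membership follows the identifiers and used no measured value, although the list was chosen with earlier results of these data known. The files carry identifiers only, so a gene is named here by its identifier and class, and the classes come from the list and not from an annotation. Epicotyls of seedlings of the cultivar Managua RZ aged 14 d were profiled on 6 one-colour arrays. The 3 negative DIF samples were grown for 7 d with 25°C days and 30°C nights, and the 3 positive DIF samples with 30°C days and 25°C nights. Both treatments had a 16 h photoperiod at a photon flux of 300 µmol per square metre and second, and both followed germination in the dark and growth at equal day and night temperatures. DIF is the difference between day and night temperature, and the study asked how it acts on stem growth. An epicotyl sample holds all cell types of that stem segment. The study's scheme places sampling while the lights were on. At that moment negative DIF seedlings stood at 25°C and positive DIF seedlings at 30°C. The effect of that momentary temperature and of the daily temperature pattern cannot be told apart.

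Chlorophyll a/b-binding proteins hold the pigments that capture light and pass its energy to the reaction centres of the photosystems. They serve both photosystems and are encoded by a nuclear multigene family whose transcripts are among the most abundant in green tissue and are known to follow light and the circadian clock. Rubisco fixes carbon dioxide with a large subunit encoded in the chloroplast and a small subunit encoded by a nuclear gene family, and Rubisco activase removes inhibitory sugar phosphates from its active site. PSBO stabilises the manganese cluster that splits water in photosystem II, and PSBS triggers the release of excess absorbed energy as heat.

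Levels are given as log2 of the processed signal minus the 75th percentile of the same array, so that 0 stands for the signal of the probe at that percentile. Fold changes are negative over positive DIF. Signal stood well above background on all 6 arrays for 49 of the 50, and no probe was saturated or marked as an outlier. The 75th percentile itself was 2417, 1900 and 1572 on the negative DIF arrays, against 1481, 1553 and 1475 on the positive DIF arrays, and unscaled signals carry that difference. Between 62.2% and 67.0% of probes were well above background per array, and the number of arrays limits the precision. Negative DIF replicates 1 and 2 were on 1 slide, and negative DIF replicate 3 with all 3 positive DIF arrays on another. The study's methods call the samples biological replicates. Positive DIF replicate 1 stood apart from the other positive DIF arrays in these genes, so values are given with and without it.

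No light-harvesting or Rubisco gene passed the test between negative and positive DIF. At an adjusted p under 0.05 (limma, Benjamini-Hochberg over all probes), 0 of the 50 probes were called, where 0.92% of all probes were (0.425% with more and 0.495% with less signal under negative DIF), and the smallest adjusted p was 0.157. Before adjustment, p was under 0.05 for 1 probe with more signal under negative DIF and for 3 with less. That is 8.0% of the 50, against 18.9% of all probes (10.2% higher and 8.72% lower), and against 24.5% of the 25327 probes well above background on all arrays. The treatments did not overlap for 3 probes, all of them lower under negative DIF, whereas 27.0% of all probes did not overlap (14.6% higher, 12.4% lower). The median log2 fold change was 0.048 over the 50 probes and 0.074 over all probes. For 34 of the 50 probes the 95% interval of the fold change lay within 1 log2 unit of 0 on both sides, and for the others a difference of that size was not excluded by the interval. In a whole stem segment, the share of green cells and the RNA per cell both enter a level and cannot be told apart.

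**Figure D1:**
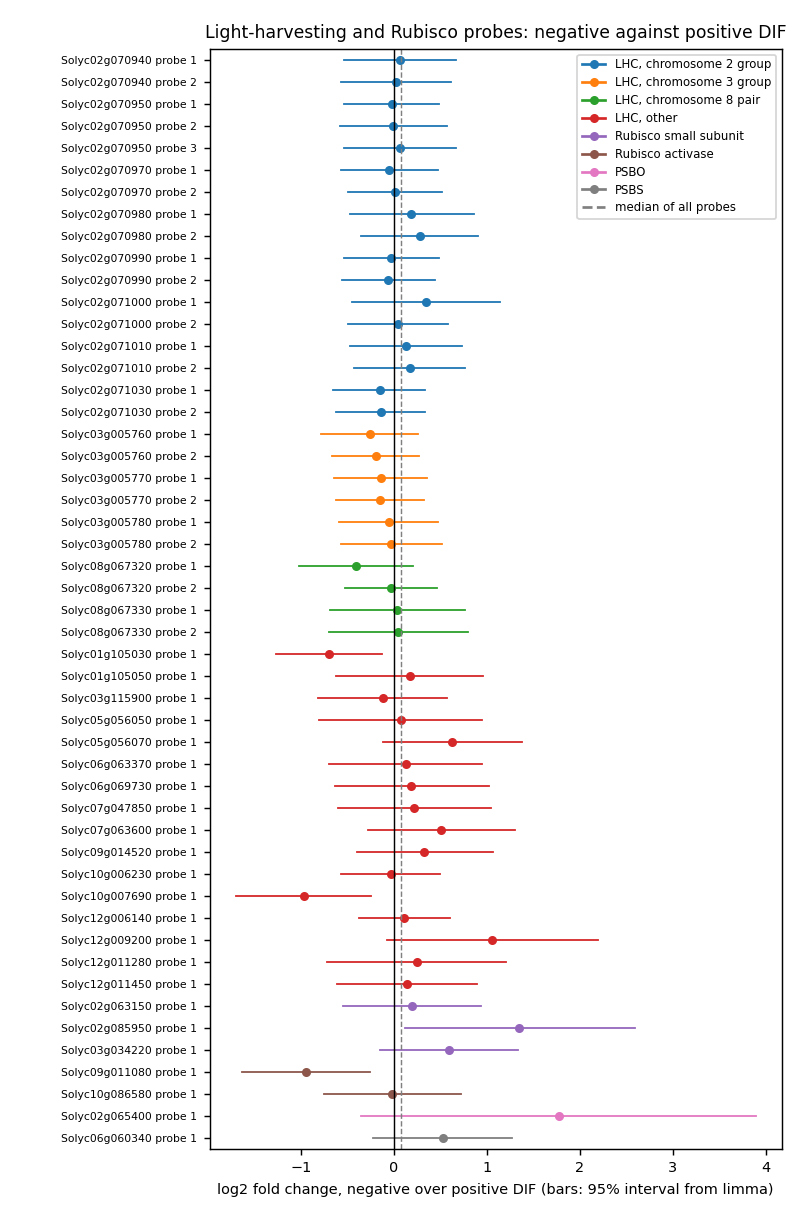
Log2 fold change of each of the 50 probes, negative over positive DIF (horizontal axis), with 95% intervals from limma as bars, colours for gene classes and a dashed line at the median of all probes, 0.074. The chromosome 2, 3 and 8 groups sit near 0, while the single light-harvesting genes and the Rubisco genes spread on both sides. The PSBO probe was not well above background on 5 of the 6 arrays.

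The 8 light-harvesting genes whose identifiers lie next to each other on chromosome 2, read by 17 probes, had a median log2 fold change of 0.019, between -0.15 and 0.35. Genes of this kind stand in tandem and encode nearly identical proteins of the main photosystem II antenna, and their transcripts can bind each other's probes, so values of single copies are uncertain. For 16 of the 17 probes the 95% interval lay within 1 log2 unit of 0. Solyc02g070940 (probe 1) had levels of 7.17, 7.40 and 7.47 on the negative DIF arrays, against 7.74, 7.10 and 7.02 on the positive DIF arrays. Here positive DIF replicate 1 lay above all 3 negative DIF arrays, the other two positive DIF arrays were below all of them, and the group means of 7.35 ± 0.16 and 7.29 ± 0.39 (SD, n = 3 each) differed by less than either spread. The same order of highest array was seen in all 17 probes of the group. The widest difference between probes of 1 gene in the group was in Solyc02g071000, with log2 fold changes of 0.35 and 0.045.

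The 3 genes of the chromosome 3 group (6 probes) all had negative fold changes, with a median of -0.14 and a range of -0.26 to -0.025, and every 95% interval lay within 1 log2 unit of 0. Solyc03g005760 had the lowest, with levels of 7.13, 7.12 and 7.63 under negative DIF and 7.72, 7.48 and 7.48 under positive DIF for probe 1 (log2 fold change -0.26, SE 0.22, adjusted p = 0.599). Its probe 2 stood at 7.5, 7.71 and 7.87 under negative DIF and 8.06, 7.75 and 7.85 under positive DIF (-0.19, SE 0.19, adjusted p = 0.68). In both probes negative DIF replicate 3 lay among the positive DIF arrays, so the treatments overlapped.

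The chromosome 8 pair (2 genes, 4 probes) had a median log2 fold change of 0.0029. Its lowest value came from probe 1 of Solyc08g067320, with 7.07, 6.93 and 6.30 under negative DIF and 7.33, 7.06 and 7.13 under positive DIF (-0.41, SE 0.25, adjusted p = 0.456). Negative DIF replicate 3 was the low array there. Probe 2 of the same gene did not show it, with 6.93, 7.08 and 7.24 under negative DIF and 7.39, 6.99 and 6.97 under positive DIF, and its log2 fold change was -0.033. This was the widest disagreement among the 13 genes with more than 1 probe. The median spread between probes of a gene was 0.044, and in 2 of the 13 genes, Solyc02g070950 and Solyc02g070970, the signs differed around values close to 0.

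The other 16 light-harvesting genes, each read by 1 probe, varied more, with log2 fold changes between -0.97 and 1.06 and a median of 0.16. No call at an adjusted p under 0.05 was made among them, and 7 of the 16 intervals lay within 1 log2 unit of 0. The highest was Solyc12g009200, with levels of 2.07, 2.15 and 1.99 under negative DIF, against 2.01, 0.11 and 0.92 under positive DIF. The negative DIF arrays were close together (SD 0.083), whereas positive DIF replicate 1 lay among them and the other two positive DIF arrays lay below (SD 0.95). Its log2 fold change was 1.06 (SE 0.47, adjusted p = 0.292).

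A like order was seen in Solyc05g056070, at 3.48, 4.09 and 3.97 under negative DIF and 3.77, 3.02 and 2.87 under positive DIF (0.63, SE 0.31, adjusted p = 0.34). Solyc07g063600, a dim probe, had -4.43, -3.89 and -4.07 under negative DIF and -4.01, -5.08 and -4.83 under positive DIF (0.51, SE 0.33, adjusted p = 0.469). In both genes positive DIF replicate 1 was inside the range of the negative DIF arrays and the remaining pair of positive DIF arrays was below it.

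A pair of single-probe genes ran the other way, with no overlap between treatments. Solyc10g007690 stood at -4.06, -3.55 and -3.97 under negative DIF, against -2.33, -3.23 and -3.09 under positive DIF, and its log2 fold change was -0.97 (SE 0.30, unadjusted p = 0.0164, adjusted p = 0.163 by limma). This is a dim probe, with processed signals of 145, 162 and 100 under negative DIF and 294, 165 and 173 under positive DIF. Solyc01g105030 stood at -0.81, -0.31 and -0.59 under negative DIF, against 0.46, -0.095 and 0.018 under positive DIF (-0.70, SE 0.24, unadjusted p = 0.024, adjusted p = 0.191 by limma).

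The neighbour of Solyc01g105030 on the list, Solyc01g105050, had a log2 fold change of 0.17 (adjusted p = 0.893), with 0.46, 0.82 and 0.20 under negative DIF and 0.94, 0.026 and -0.012 under positive DIF. The difference between both probes within an array, which cancels the scaling of that array, was -1.27, -1.13 and -0.78 under negative DIF and -0.48, -0.12 and 0.031 under positive DIF. This pair was chosen after its values were seen, so the mean difference between treatments of -0.87 is given as a description with no p-value. Only the variation over arrays can be read, since probes differ in brightness.

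**Figure D2:**
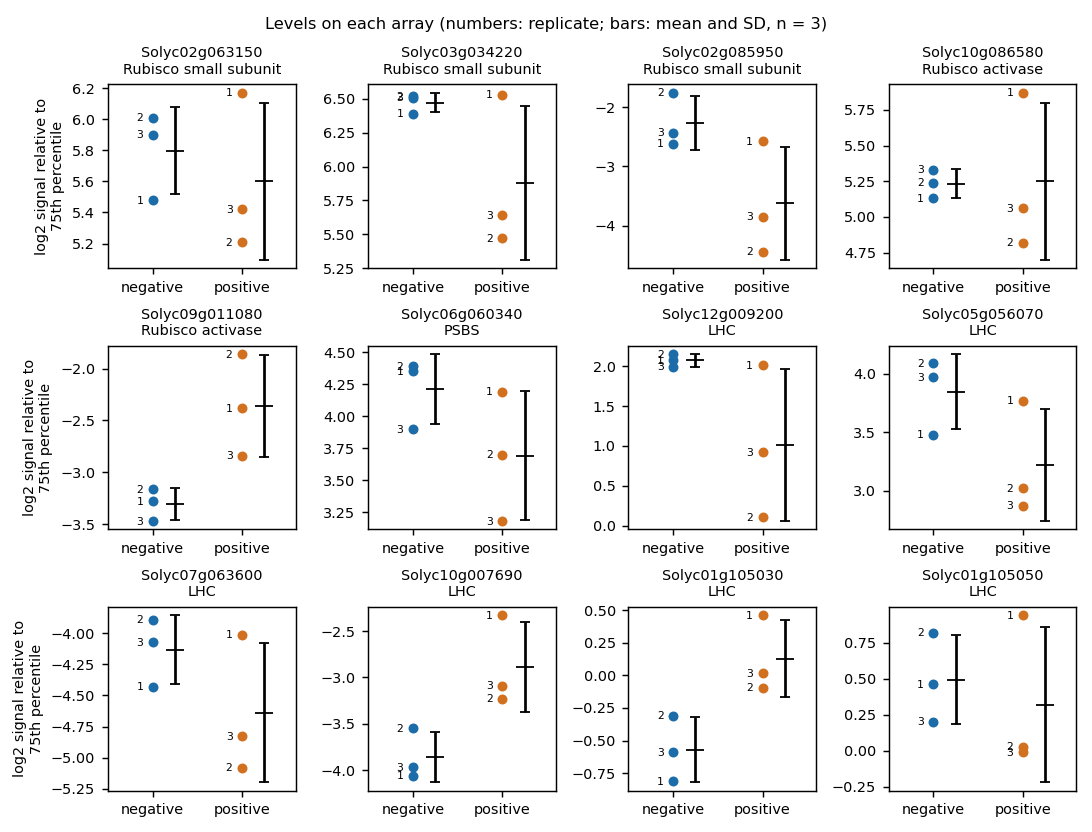
Log2 level of 12 genes on each array (vertical axes, relative to the 75th percentile of the array and cut to each gene's range), negative DIF left in blue and positive DIF right in orange, with replicate numbers at the points and the mean and SD (n = 3) as bars. In Solyc03g034220, Solyc12g009200 and Solyc02g085950 positive DIF replicate 1 sits beside the negative DIF arrays, while in Solyc10g007690, Solyc09g011080 and Solyc01g105030 all positive DIF points lie above all negative DIF points.

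All 3 Rubisco small subunit genes had positive log2 fold changes, of 0.20, 0.59 and 1.35, and none passed at an adjusted p under 0.05. The bright probe of Solyc03g034220 had levels of 6.39, 6.52 and 6.51 under negative DIF, against 6.53, 5.47 and 5.64 under positive DIF (0.59, SE 0.31, adjusted p = 0.364). Its 3 negative DIF arrays and positive DIF replicate 1 lay within a narrow band, and the other two positive DIF arrays were below it. The group SD was 0.07 under negative DIF and 0.57 under positive DIF.

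Solyc02g085950 was the only one of the 50 probes with a positive fold change and p under 0.05 before adjustment. It stood at -2.62, -1.76 and -2.43 under negative DIF, against -2.58, -4.44 and -3.85 under positive DIF (1.35, 2.55-fold, SE 0.51, unadjusted p = 0.0364, adjusted p = 0.228 by limma). This probe is dim, with processed signals of 393, 560 and 291 under negative DIF and 247, 71.4 and 102 under positive DIF. Again positive DIF replicate 1 overlapped the negative DIF arrays. Solyc02g063150 was at 5.48, 6.01 and 5.90 under negative DIF and 6.17, 5.21 and 5.42 under positive DIF (0.20, SE 0.31, adjusted p = 0.844), with positive DIF replicate 1 the highest of the 6 arrays.

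Neither Rubisco activase gene passed at an adjusted p under 0.05. Solyc10g086580, read by a bright probe, had levels of 5.13, 5.24 and 5.33 under negative DIF and 5.87, 4.82 and 5.06 under positive DIF, and its log2 fold change was -0.017 (SE 0.30, 95% interval -0.75 to 0.72, adjusted p = 0.981). Solyc09g011080, read by a dim probe, had -3.28, -3.16 and -3.47 under negative DIF, against -2.38, -1.86 and -2.84 under positive DIF, with no overlap (-0.94, SE 0.28, unadjusted p = 0.0148, adjusted p = 0.157 by limma). In this gene positive DIF replicate 2 and not replicate 1 was the highest array. The within-array difference between both activase probes was -8.42, -8.41 and -8.80 under negative DIF and -8.25, -6.68 and -7.90 under positive DIF (mean difference -0.93, also chosen after the values were seen and given with no p-value).

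The PSBS gene Solyc06g060340 had levels of 4.35, 4.39 and 3.90 under negative DIF and 4.19, 3.70 and 3.18 under positive DIF (0.53, SE 0.31, adjusted p = 0.422). The treatments overlapped through positive DIF replicate 1 and negative DIF replicate 3. The only probe of the PSBO gene Solyc02g065400 was well above background on 1 of 3 negative DIF arrays and 0 of 3 positive DIF arrays. Its levels were -9.18, -6.22 and -5.77 under negative DIF and -8.71, -8.70 and -9.06 under positive DIF. These are near the bottom of the scale, and no fold is given because the negative DIF mean of -7.06 was under the detection floor of -6.69 on the positive DIF arrays. With 1 probe, mostly undetected, these levels do not show that the gene was silent. How well the probe reads its transcript was not tested.

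The feature shared by most of these genes was the position of 1 array. Of the 6 arrays, positive DIF replicate 1 was the highest in 43 of the 50 probes (86.0%), whereas it was the highest in 17.1% of all probes. It was so in all 17 probes of the chromosome 2 group, all 6 of the chromosome 3 group, all 4 of the chromosome 8 pair and 13 of the 16 other light-harvesting probes. Over the 50 probes, the median level relative to each probe's own mean was -0.16, 0.081 and 0.14 on the negative DIF arrays, against 0.37, -0.20 and -0.26 on the positive DIF arrays. Positive DIF replicate 1 exceeded the mean of positive DIF replicates 2 and 3 in 49 of the 50 probes, by a median of 0.67, against a median of 0.087 over all probes. The median SD within a treatment was 0.20 under negative DIF and 0.40 under positive DIF for these probes, and 0.34 under negative DIF and 0.29 under positive DIF for all probes.

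The size of this step differed among classes. The median excess of positive DIF replicate 1 over the mean of positive DIF replicates 2 and 3 was 0.30 in the chromosome 3 group, 0.52 in the chromosome 2 group, 0.66 in the chromosome 8 pair, 0.92 in the other light-harvesting genes and 0.98 in the small subunit genes. By mean processed signal, it was 0.46 in the 29 probes at 100000 or more 0.93 in the 16 probes between 1000 and 100000, and 0.83 in the 5 probes under 1000. The brightest probes reached a signal of 450559 on an array with a saturation value of 777801.

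**Figure D3:**
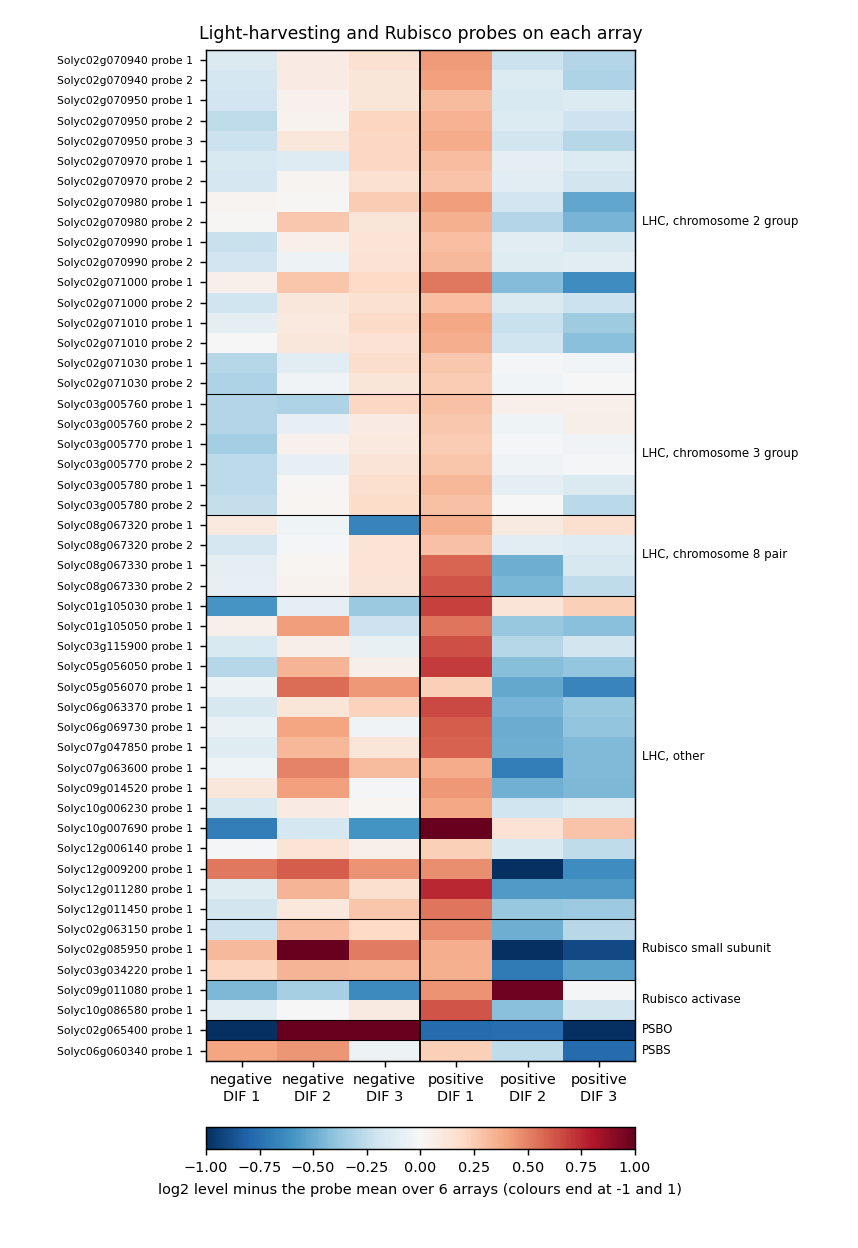
Level of each of the 50 probes (rows, by class) on each array (columns, negative DIF left of the line and positive DIF right) minus the probe's mean over the 6 arrays, in log2 units, with red above and blue below that mean. The column of positive DIF replicate 1 is red in nearly all rows, and positive DIF replicates 2 and 3 are blue in most of them.

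Correlation with the median profile of the 50 probes over the 6 arrays had a median of 0.90, from -0.086 to 1.0, as a description only, since the probes share their arrays and scaling. The lowest were probe 1 of Solyc08g067320 (-0.086), the activase gene Solyc09g011080 (-0.085), Solyc01g105030 (0.36) and Solyc10g007690 (0.38). The last 3 of these 4 probes were also those with a negative fold change and p under 0.05 before adjustment.

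Positive DIF replicate 1 was chosen for removal after its position in these probes was seen. By arithmetic, its removal raises the fold change wherever it exceeded the mean of positive DIF replicates 2 and 3. The shift is thus no separate result. When this array was left out, unadjusted p was under 0.05 for 11 of the 50 probes on the higher side of negative DIF and for 2 on the lower side. That is 26% of the 50, against 17.1% of all probes (9.14% higher and 7.98% lower). Again 0 passed at an adjusted p under 0.05 (limma), where 0.171% of all probes did (0.0502% higher and 0.121% lower), and the smallest adjusted p was 0.109. The median log2 fold change was 0.28, against 0.10 over all probes, and 40 of the 50 were positive, against 29 with all arrays. The small subunit genes Solyc02g085950 (1.87) and Solyc03g034220 (0.92), the PSBS gene (0.77) and the light-harvesting genes Solyc12g009200 (1.55), Solyc05g056070 (0.90) and Solyc07g063600 (0.83) were among the 11. The 2 lower probes were Solyc10g007690 (-0.70) and the activase gene Solyc09g011080 (-0.95). Leaving out any 1 of the other 5 arrays gave 0 or 1 higher probe and 1 to 3 lower probes.

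The balance of signs moved with single arrays of both treatments. With all arrays 58.0% of the 50 fold changes were positive, against 57.5% of all probes. The share of the 50 was 78.0% without negative DIF replicate 1, 54.0% without negative DIF replicate 2 and 48.0% without negative DIF replicate 3. It was 80.0% without positive DIF replicate 1, 36.0% without positive DIF replicate 2 and 32.0% without positive DIF replicate 3. Of all probes, 57.4% were positive without positive DIF replicate 1. Their median log2 fold change moved too, from -0.032 without negative DIF replicate 2 to 0.13 without negative DIF replicate 1. Within the slide that held both treatments, 43 of the 50 probes (86.0%) were higher on negative DIF replicate 3 than on the mean of the 3 positive DIF arrays, with a median of 0.15, against 0.11 over all probes. The scaling of the arrays also moved this balance. The share of positive fold changes was 58.0% after scaling to the 75th percentile, 84.0% after quantile normalization, 62.0% after normexp background correction and 77.8% of 36 genes in the deposited normalized table. In that order, the median log2 fold change over all probes or genes was 0.074, 0.011, -0.19 and 0.002.

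**Figure D4:**
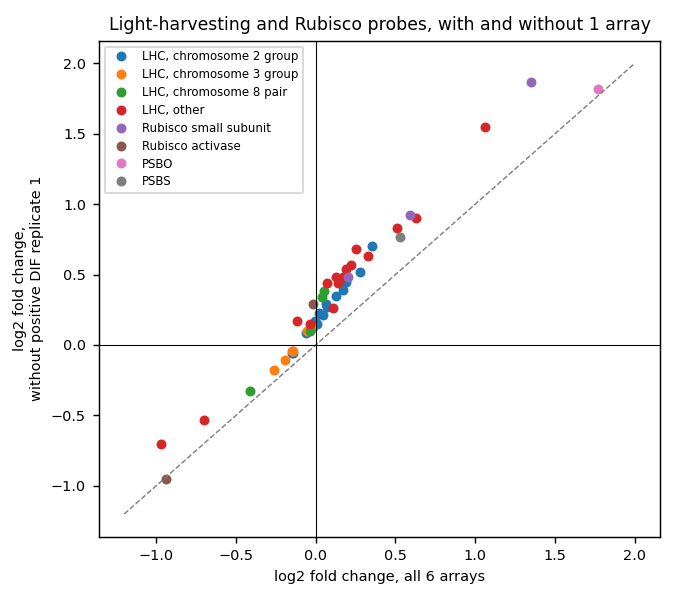
Log2 fold change of each probe (negative over positive DIF) with all 6 arrays (horizontal axis) and without positive DIF replicate 1 (vertical axis), colours for classes and a dashed line of equality. Nearly all points lie above the line, and 40 of the 50 lie above 0 on the vertical axis, against 29 on the horizontal axis. By arithmetic, a point lies above the line wherever positive DIF replicate 1 exceeded the mean of positive DIF replicates 2 and 3.

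Other genes of photosynthesis were read from 3 lists of identifiers. Of 19 probes (18 genes) for photosystem subunits and electron transport, 1 fell under negative DIF at an adjusted p under 0.05, and at an unadjusted p under 0.05, 0 were higher and 3 were lower. These 3 are 15.8% of the list, against 18.9% of all probes in either direction and 8.72% on the lower side. The adjusted threshold was passed by 0.92% of all probes (0.495% lower). The one that fell was Solyc02g062130, for a ferredoxin--NADP reductase, an enzyme that passes electrons from ferredoxin to NADP. Its levels were -2.07, -2.34 and -2.23 under negative DIF, against -0.25, -0.30 and 0.18 under positive DIF (-2.09, SE 0.21, adjusted p = 0.0276 by limma), with processed signals of 576, 374 and 336 against 1247, 1261 and 1676. The call was kept without negative DIF replicate 3 (adjusted p = 0.042) and lost without any 1 of the other 5 arrays (adjusted p between 0.0561 and 0.143), and also with slide as a fixed block (adjusted p = 0.245), with log2 fold changes between -2.18 and -1.94. In this gene positive DIF replicate 1 did not stand apart, and without it the log2 fold change was -2.16 (adjusted p = 0.0602 by limma). The value holds for this gene only. Solyc02g083810, on the same list and read by a much brighter probe, had a log2 fold change of 0.087 (adjusted p = 0.904 by limma).

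Solyc01g103920, for ferredoxin I, the small iron-sulfur carrier after photosystem I, had levels of -3.13, -1.74 and -1.25 under negative DIF, against 0.54, 1.54 and 0.89 under positive DIF (-3.03, SE 0.53, adjusted p = 0.0594). The groups of arrays lay far apart, although the negative DIF arrays spread widely among themselves. Solyc02g062130 and Solyc01g103920 both stand on the list of lower genes that the study drew from these samples, which is no independent evidence of their direction. The remaining lower probe, Solyc02g079950, had a log2 fold change of -0.79 (adjusted p = 0.234). Positive DIF replicate 1 was the highest array in 14 of the 19 probes of the list.

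Among 13 probes for Calvin cycle enzymes, which regenerate the acceptor of carbon dioxide, before adjustment 0 were higher and 1 was lower at p under 0.05 (Solyc02g084440, -0.55, adjusted p = 0.175 by limma). That is 7.69% of the list, against 18.9% of all probes in either direction and 8.72% on the lower side. The median log2 fold change of the list was 0.14. Of 14 probes for chlorophyll synthesis, the pathway that supplies the pigment of the light-harvesting proteins, 3 were higher and 0 lower at that threshold, with a median of 0.19. That count is 21.4% of the list, against 18.9% of all probes in either direction and 10.2% on the higher side. It rests on 3 probes. None of them passed at an adjusted p under 0.05. Solyc04g015490 had levels of 1.37, 1.06 and 0.99 under negative DIF, against 0.10, 0.11 and 0.22 under positive DIF (1.0, SE 0.18, adjusted p = 0.0646). Solyc04g009200 had 1.76, 2.07 and 1.74 under negative DIF, against 1.22, 0.71 and 0.59 under positive DIF (1.02, SE 0.23, adjusted p = 0.0994). In both the treatments did not overlap, although positive DIF replicate 1 was the highest positive DIF array in Solyc04g009200. Over the list, positive DIF replicate 1 exceeded the mean of positive DIF replicates 2 and 3 in 13 of 14 probes, by a median of 0.41, and was the highest of the 6 arrays in 7. The third was Solyc09g014760 (0.49, adjusted p = 0.23).

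**Figure D5:**
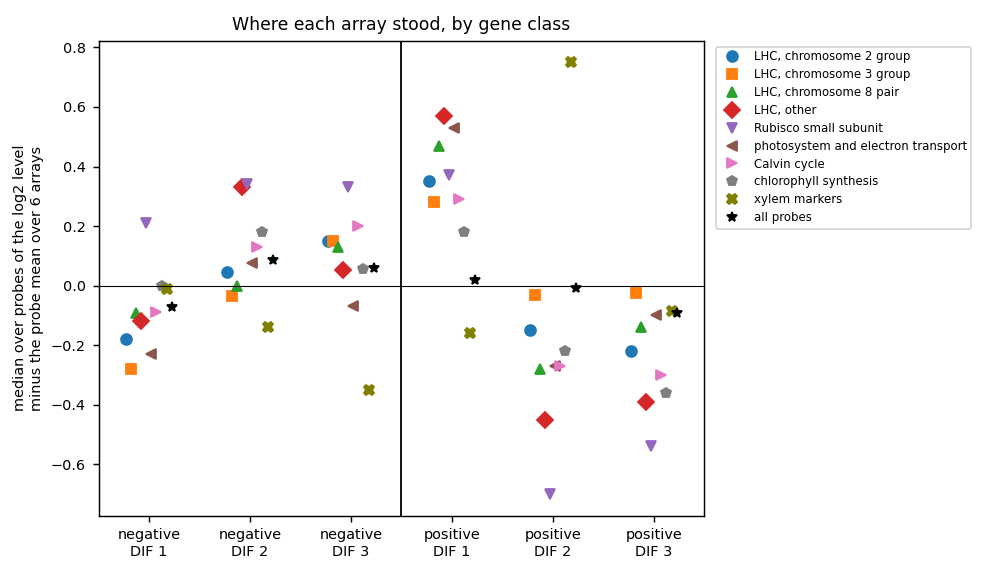
Median over the probes of a class or list of the level minus the probe's mean over 6 arrays, in log2 units (vertical axis), for each array (horizontal axis, negative DIF left of the line). Positive DIF replicate 1 stands above 0 for all light-harvesting classes, the small subunit genes and the 3 photosynthesis lists, while the median of all probes stays near 0 on each array.

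Markers of other cells of the stem were set beside these values. None of 3 xylem genes passed at an unadjusted p under 0.05, and their log2 fold changes were between -0.41 and 0.40. On positive DIF replicate 2 a pair of them was at its highest (Solyc02g072240 at 2.85 and Solyc09g072820 at 3.68). The other xylem gene, Solyc01g087210, had 2.25, 2.58 and 2.61 under negative DIF, against 2.13, 2.19 and 1.94 under positive DIF, with no overlap (0.40, adjusted p = 0.326). Relative to each probe's mean, the xylem median was 0.75 on positive DIF replicate 2 and -0.086 on positive DIF replicate 3. On positive DIF replicate 2 the 3 xylem probes ran from -0.1 (Solyc01g087210) to 0.87, so that median does not describe all of them. The median of the light-harvesting and Rubisco probes was -0.20 on positive DIF replicate 2 and -0.26 on positive DIF replicate 3. Of 2 shoot apex genes, Solyc04g077210 had 2.25, 2.55 and 2.37 under negative DIF, against 3.33, 3.46 and 3.24 under positive DIF (-0.95, adjusted p = 0.0662), and Solyc02g081120 had 1.1, 1.81 and 2.60 under negative DIF and 2.02, 2.63 and 2.40 under positive DIF (-0.51, adjusted p = 0.581). All 5 markers were well above background on all 6 arrays. Their part in the position of the light-harvesting genes was not tested.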

How the data were processed

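The authors labelled epicotyl RNA with 1 dye, hybridised it to a custom Agilent array and deposited the spot intensity values of each array from Feature Extraction 10.10.1.1, subtracted for background and not scaled between arrays. A second deposited file gives normalized log2 values, 1 row for each of 33614 genes. Its column headings name the opposite treatment to the arrays whose rank order the columns match. Samples were grouped by their titles, and a grouping by those headings would turn every sign.

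After removal of control spots and flagged outliers, processed signals were put on the log2 scale and set relative to each array's 75th percentile. Dim probes were kept. The treatments were compared with limma 3.58.1 in R 4.3.3 and Benjamini-Hochberg adjustment over 43803 probes, and the fit was tested on simulated data. Tabulation used pandas 2.3.3 under Python 3.11.15, and plots matplotlib 3.10.9. An exact permutation test (scipy 1.17.1) was run on the within-array differences. With 3 arrays per treatment its smallest possible p is 0.1, and its outcome is not used. Described array by array were the 6 probes with the highest and the 6 with the lowest fold change among those well above background on all arrays, the Rubisco, activase, PSBO and PSBS genes, and up to 3 genes per pathway list. Where nothing in the labels ties a sample to separate plants, p-values measure the spread between these samples. The genes and lists were chosen with earlier results of these data known, and the pathway and marker identifiers were assigned from general knowledge of tomato genes. The alternatives were quantile normalization, a filter on dim probes, normexp (offset 50), eBayes with trend and robust, the methods' t-test, slide or replicate number as a block, the deposited table, a size threshold and leaving out each array. Sequences were not used here.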

Additional observations from a re-analysis of the deposited data

How the results depend on the processing

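No light-harvesting or Rubisco probe passed at an adjusted p under 0.05 under any alternative run. The number higher at an unadjusted p under 0.05, 1 in the comparison as reported, was 2 with slide as a random block, with quantile normalization and with the trend and robust setting, 4 with normexp, 0 with the methods' t-test, and 6 of 36 genes in the deposited table (columns taken as the arrays they match, chosen after seeing the data). Called in either direction were 14.0% of the 50 probes with normexp, against 25.2% of all probes, and 25.0% of the 36 genes in the deposited table, against 25.8% of all its genes. With slide as a random block the estimated correlation within a slide was negative (-0.216), so that setting removed no shared slide effect. It called 27.9% of all probes before adjustment, against 7.38% with slide as a fixed block. Leaving out 1 array gave 0 to 11 higher and 1 to 3 lower, the extremes being positive DIF replicate 1 (11 higher) and negative DIF replicate 1 (1 lower). If a log2 change above 1 was also demanded, 0 of the 3 lower were left. The median of 0.048 was between -0.065 and 0.28 when 1 array was left out, 0.14 with quantile normalization and 0.20 in the deposited table. With the replicate number as a block, the reductase gene Solyc02g062130 lost its call (adjusted p = 0.0732 by limma, and 0.0705 by Student's t-test). With that block, 0 of the 50 probes were higher at an unadjusted p under 0.05 and 2 were lower, and no adjusted call was made. For 25326 probes the mean of the treatment was subtracted from each level. The deviations left on same-numbered arrays of the treatments correlated at 0.006, 0.044 and 0.223. Those on arrays with different numbers correlated at -0.351 to 0.318. These values are not correlations of the levels themselves. Whether the numbers pair the samples was not tested. With slide as a fixed block the sign turned for probe 1 of Solyc03g005760 (0.072) and for Solyc10g086580 (0.076), and Solyc10g086580 ranged from -0.23 to 0.29 when 1 array was left out (0.035 without negative DIF replicate 1 and 0.29 without positive DIF replicate 1). The cause was not tested. Of 223 values for the 15 probes described, 219 kept direction and side of the threshold. The dim-probe filter, the trend and robust setting, Student's t-test and the replicate block left the fold change unchanged, so they could not turn a sign. As no probe described passed the adjusted threshold in any setting, the side of it was the same throughout. With quantile normalization probe 2 of Solyc03g005760 was at 0.0, since by signal among all probes its ranks were 2, 2 and 3 in each treatment. Following the deposited table's headings was the same fit with every sign turned and was not run. Probes under a signal of 1000 had wide intervals, and 3 arrays against 3 limited what could be called.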
